A study of Mus musculus with 10 samples.

Results

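Slc6a3 and Th mark neurons that make dopamine. These 2 genes of the 19505 named on the array were followed, and the platform's annotation gave 1 probe set to each. The tissue was hypothalamus from male mice of C57BL/6J, a common inbred strain. One group of 5 samples, Young, came from mice 24 weeks of age and the other 5, Old, from mice of 138 weeks. All mice had free access to feed and water, no transgene or treatment is named, and the study asked which hypothalamic transcripts change with age. Messenger RNA was read on 1-colour Clariom S Mouse arrays from 100 ng of total RNA per sample. Nothing in the labels ties a sample to 1 animal, so the spread behind each p-value may be in part technical. The genes were chosen by the level of their probe sets and with the spread of Slc6a3 over single arrays already known.

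Th encodes tyrosine hydroxylase, which makes L-DOPA from tyrosine and is the rate-limiting enzyme of dopamine synthesis. Slc6a3 encodes the dopamine transporter, which returns released dopamine to the neuron. Dopamine neurons of the hypothalamus include the tuberoinfundibular cells of the arcuate nucleus, which hold back prolactin release from the pituitary. The larger and transporter-rich populations lie in the ventral midbrain, just behind the hypothalamus, in the substantia nigra and ventral tegmental area. In a bulk sample, fewer cells of a type and less RNA per cell cannot be told apart.

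Values are deposited log2 signals with 1 number per probe set and array, so a difference of 1 is a 2-fold change. Base 2 was read from the range of the values, since the file does not name it. Of the 22206 probe sets, 97.9% had collapsed to nearly the same value on all arrays. A gene with a population standard deviation of at least 0.01 log2 over the 10 arrays is called varying below, and 276 genes were. Any other gene is given as a level only. Most of these had collapsed, so their values cannot show whether they changed, and a few, such as Chrna6, lay between. How far the values of varying genes were also shrunk is unknown, so folds describe the deposited values. Array medians lay between 6.778 and 6.783 log2. No detection call was used, and no probe's level is set against another's. Both Slc6a3 and Th varied.

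The sequences just upstream of both transcription starts are shown as description, and their part in the signals of the 2 genes was not tested. They are the 250 bases before the start in RefSeq (GRCm38.p6), for Slc6a3 at chr13:73536497-73536746 on the plus strand and for Th at chr7:142899996-142900245 on the minus strand, 5′ to 3′. RefSeq's Slc6a3 gene, which includes predicted transcripts, begins before this window, so part of it may be transcribed. Capitals mark a GC box (GGGCGG or its complement CCGCCC) or a cAMP response element (TGACGTCA).
Slc6a3: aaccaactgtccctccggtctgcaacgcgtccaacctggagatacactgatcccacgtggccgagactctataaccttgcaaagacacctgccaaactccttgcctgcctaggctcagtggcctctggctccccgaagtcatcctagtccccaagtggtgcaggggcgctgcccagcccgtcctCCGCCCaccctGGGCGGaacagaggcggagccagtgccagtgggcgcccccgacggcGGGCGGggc
Th: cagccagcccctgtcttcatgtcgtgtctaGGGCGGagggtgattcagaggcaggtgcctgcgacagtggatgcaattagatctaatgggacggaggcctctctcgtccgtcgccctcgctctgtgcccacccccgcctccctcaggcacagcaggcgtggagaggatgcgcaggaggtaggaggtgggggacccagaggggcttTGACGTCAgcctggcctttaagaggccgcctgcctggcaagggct
A script searched both strands for these motifs, for AAAGGTCA, the element that the dopamine neuron factor Nr4a2 binds, and for TAATCC, a site of Pitx-type homeodomain factors. The Th window held the cAMP response element at bases -45 to -38 before the start, a motif found in 1.55% of the 32851 RefSeq windows of this length, and 1 GC box. The Slc6a3 window held 3 GC boxes and no cAMP response element, while 32.7% of windows held a GC box. Neither window held AAAGGTCA (1.34% of windows) or TAATCC (6.25%). GC content was 66.0% for Slc6a3 and 64.4% for Th, where the median window had 52.4%. These matches describe letters and show no binding.

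The dopamine transporter gene differed more between arrays of 1 age than between the ages. Slc6a3 was at 8.30, 8.42, 8.51, 7.04 and 6.91 log2 in Young 1 to Young 5. In Old 1 to Old 5 it was at 8.68, 8.90, 8.26, 7.22 and 6.65. In each age group, 3 arrays (numbers 1, 2 and 3) were high and 2 (numbers 4 and 5) were low, and the groups overlapped over almost their whole range. The 6 high arrays began at 8.26 and the 4 low ones ended at 7.22, a gap of 1.04 log2 within a whole range of 2.25. The highest array, Old 2, was 4.77-fold above the lowest, Old 5. Among the 19505 genes only Ttr, the transthyretin of choroid plexus, had a larger standard deviation over the arrays. Slc6a3 was chosen with this spread known, so the spread is a description and carries no test.

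Th was at 9.40, 9.48, 9.80, 9.05 and 8.86 log2 in Young 1 to Young 5. The Old arrays had 9.80, 10.07, 9.48, 8.85 and 8.89. The same 4 arrays were the lowest for Th as for Slc6a3, ending at 9.05 where the next had 9.40, and Old 2 was again the highest. The whole range of Th was 1.23 log2, or 2.34-fold, against 4.77-fold for Slc6a3. Arrays stand alone, so neighbours in these orders cannot be tested against each other.

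**Figure D1:**
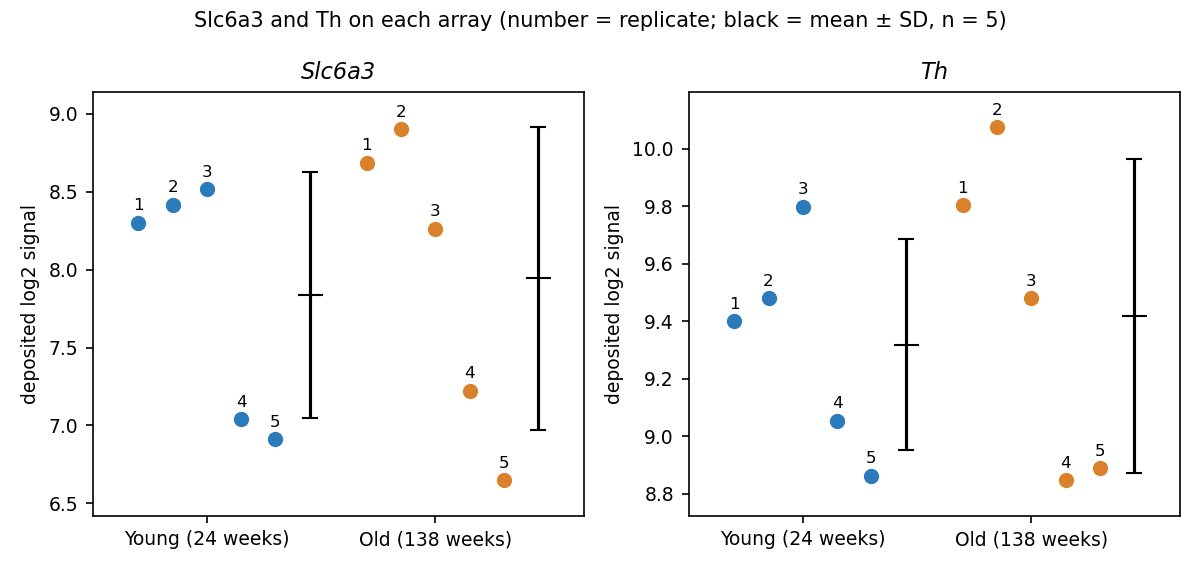
Deposited log2 signal of Slc6a3 (left) and Th (right) on each of the 5 Young and 5 Old arrays; numbers are replicates and black bars the mean ± SD. In both age groups arrays 4 and 5 are the lowest for both genes, and the group means nearly coincide.

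Over the 10 arrays Th had the highest Pearson correlation with Slc6a3 of the other 275 varying genes (r = 0.95, Spearman rho = 0.88). The gap between high and low arrays carries much of such a value, and no p is given for it. After each age group's mean was taken off, r was 0.95. Within the 6 high arrays alone, a set taken after seeing the values, r was 0.95 and rho 0.83. The set was taken by the values of Slc6a3, and both genes were picked with values known, so no p is given here either. Without the 2 of these arrays farthest from their median r was 0.84 over 4 arrays. Among the low arrays the order was not shared: Old 5 was lowest for Slc6a3 and Old 4 for Th.

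**Figure D2:**
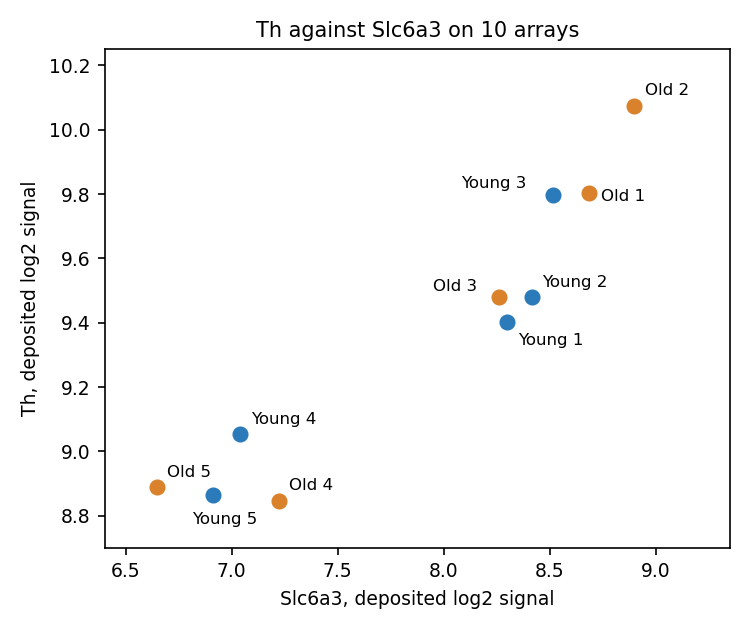
Th against Slc6a3, both in deposited log2 signal, 1 point per array (blue Young, orange Old). Slc6a3 leaves a gap between 7.22 and 8.26, and both ages lie on either side of it.

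The other genes of dopamine synthesis and handling followed Slc6a3 and Th where they varied. Ddc encodes the decarboxylase that turns L-DOPA into dopamine, and it ran from 8.07 (Young 5) to 8.55 log2 (Old 2), a 1.40-fold range. Slc18a2 encodes the vesicular monoamine transporter that loads dopamine into vesicles, and it ran from 7.56 (Old 4) to 8.30 (Old 2), a 1.67-fold range. The order of Ddc and Slc18a2 over arrays was closer to that of Th (rho = 0.94 and 0.96). Young 4, Young 5, Old 4 and Old 5 were the lowest arrays for Slc18a2, as for both members. Ddc did not keep this split, since Young 4 (8.18) was above Young 1 (8.17), and its r to Slc6a3 was 0.81. The other 6 measured genes of this list did not vary. They were Gch1 (6.19 log2), Pts, Spr and Qdpr of the tetrahydrobiopterin pathway, which supplies the cofactor of tyrosine hydroxylase, and the monoamine oxidases Maoa (7.95) and Maob (7.62).

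Markers of midbrain dopamine neurons varied in the same sense. Aldh1a1, a retinaldehyde dehydrogenase of a subset of these neurons, was at 8.68, 8.49, 8.66, 8.28 and 8.24 log2 in Young 1 to Young 5. The Old arrays had 8.51, 8.74, 8.38, 8.21 and 7.99. Arrays 4 and 5 of each age were thus the lowest for this gene too. Ret, the signalling receptor for GDNF-family growth factors, ran from 7.90 (Old 5) to 8.16 (Young 3). Slc10a4, a vesicle protein of monoamine and cholinergic neurons, ran from 7.43 (Old 5) to 7.75 (Old 2), and Chrnb3, a nicotinic receptor subunit, from 6.20 (Old 4) to 6.38 (Old 2). Over these 4 varying markers the mean level was 7.48 to 7.70 in Young arrays and 7.39 to 7.76 in Old arrays. Chrna6, the nicotinic subunit that partners Chrnb3 in dopamine neurons, did not pass the limit for varying and was at 6.70 to 6.71. Its standard deviation of 0.0032 log2 was above the 1e-05 of collapsed genes. The remaining 5 measured markers, among them Sncg (7.76) and Ntsr1 (7.09), did not vary.

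The transcription factors that set midbrain dopamine neurons apart could not be read for a difference. All 8 measured (Nr4a2, Pitx3, Foxa1, Foxa2, Lmx1a, Lmx1b, En1 and En2) were given as levels only, from 6.09 (Pitx3) to 7.69 log2 (Nr4a2). The same held for all 10 measured markers of hypothalamic dopamine neurons, among them Slc32a1, the vesicular GABA transporter (9.87), Gad1 (8.56), Ghrh (6.98) and the homeobox genes Dlx1 (8.15), Dlx5 and Isl1. Whether midbrain or hypothalamic dopamine neurons carried the differences between arrays was not tested. Genes of other monoamine neurons were also levels only: Tph2 (6.01), the enzyme of serotonin synthesis, Slc6a4 (5.86), the serotonin transporter, and Dbh (5.99) and Slc6a2 (5.92), the enzyme and the transporter of noradrenaline neurons, which also hold Th.

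Of the dopamine receptors, Drd2 followed Slc6a3 and Drd1 did not. Drd2, which encodes an inhibitory receptor made both by dopamine neurons and by their targets, was at 7.97, 7.95, 7.88, 7.70 and 7.56 log2 in Young 1 to Young 5. In the Old arrays it was at 7.83, 7.94, 7.94, 7.70 and 7.54. Its r to Slc6a3 was 0.91 over 10 arrays and -0.44 within the 6 high arrays, so the likeness lies in the step between high and low arrays. Drd1, the excitatory receptor of striatal projection neurons, was highest in Young 2 (7.16), followed by Old 3 and Young 1 (6.99), with an r of 0.36. Ppp1r1b (DARPP-32, a phosphoprotein of dopamine-responsive neurons) and Gnal (the G protein subunit of striatal receptors) were highest in the same 3 arrays, with r of 0.17 and 0.47. Drd3, Drd4, Drd5, Adcy5 and Rgs9 did not vary.

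Across the 5 dopamine lists 47 genes were measured and 12 varied. All 11 varying genes other than Slc6a3 had an r to Slc6a3 above 0, and 132 of all 275 varying genes did. The 11 include Th, and the lists were chosen with earlier results of these data known. Several of the 11 share the step between high and low arrays, so they are not independent and the count carries no test. Of the 10 varying list genes other than both members, 9 had an r to Th above 0, and Ppp1r1b had -0.12. The 8 genes most like Slc6a3 were, in order, Th, Ret, Slc10a4, Drd2, Aldh1a1, Chrnb3, Slc18a2 and Cplx1, which encodes the synaptic fusion regulator complexin 1, with r from 0.95 to 0.86 over 10 arrays. The 8 most like Th were Chrnb3 (0.96), Slc6a3, Slc18a2, Ret, Ddc, Aldh1a1, Drd2 and Cplx1 (0.78). Within the 6 high arrays the order changed: r to Slc6a3 was 0.95 for Chrnb3 and 0.88 for Slc18a2, but 0.51 for Aldh1a1, 0.38 for Ret, 0.34 for Slc10a4 and -0.051 for Cplx1. In a further check Young 3 and Young 5 were left out. The reason was that the liver gene Alb was highest in Young 3 (6.87 log2, at most 6.34 elsewhere) and choroid plexus genes in Young 5. The same 8 genes were then most like Slc6a3, but Slc10a4 was at rank 1 and Th at rank 2. For Th, Slc6a3 moved to rank 3, and Drd2 and Cplx1 to ranks 10 and 11.

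The genes least like them ran the other way. Hdc, which encodes the histamine-making enzyme of tuberomammillary neurons in the posterior hypothalamus, was at 8.16, 8.15, 8.13, 8.30 and 8.40 log2 in Young 1 to Young 5. In the Old arrays it was at 8.14, 8.26, 8.15, 8.30 and 8.31. Arrays 4 and 5 of each age were the highest for Hdc, and its r to Slc6a3 was -0.79 over 10 arrays and 0.67 within the 6 high arrays. Igsf1, an immunoglobulin-superfamily membrane protein, had the lowest r to Th (-0.77) and ran from 8.15 (Old 1) to 8.86 (Young 5). Zim1, an imprinted zinc finger gene (-0.84), Syt10, a synaptotagmin (-0.77), and the protein kinase A subunit gene Prkacb (-0.78) were also among the least like Slc6a3. Rspo3, a secreted Wnt signal enhancer, had an r to Th of -0.75. Without Young 3 and Young 5, Zim1 was still least like Slc6a3, with Syt10 at rank 3, Prkacb at 4 and Hdc at 7. Counted from the lowest r to Th, Rspo3 was then at rank 3, Syt10 at 7, Zim1 at 8 and Igsf1 at 10. Zim1, Prkacb and Rspo3 spanned 0.051, 0.059 and 0.041 log2, little above the limit for varying.

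**Figure D3:**
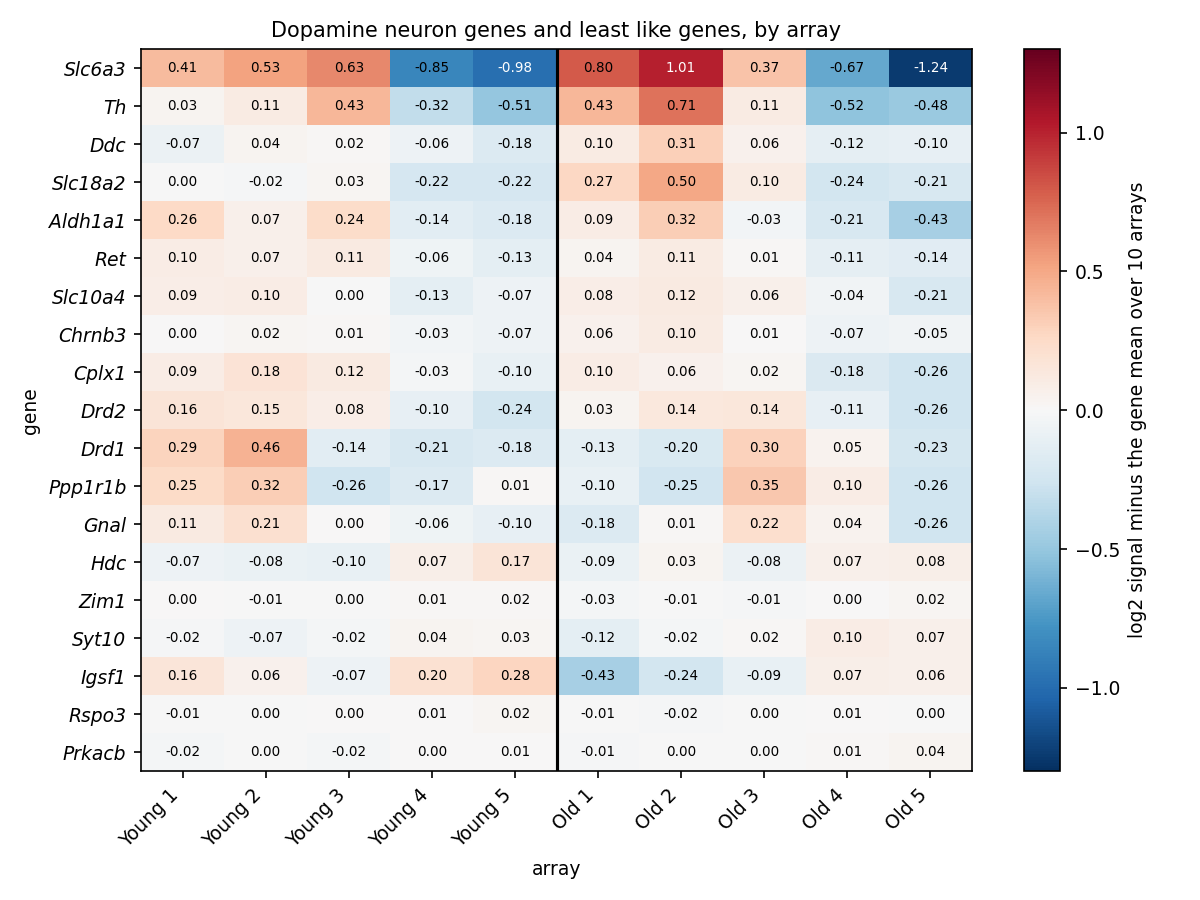
Log2 signal of each gene minus its mean over the 10 arrays, by array, for the varying dopamine genes, Cplx1 and the genes least like Slc6a3 or Th. Slc6a3 runs from -1.24 in Old 5 to 1.01 in Old 2, and Drd1, Ppp1r1b and Gnal follow another order of arrays than Slc6a3.

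No age difference was shown for either gene. Slc6a3 had 7.84 ± 0.79 log2 in Young and 7.94 ± 0.97 in Old (SD, n = 5), a difference of 0.11 (SE 0.53, 1.08-fold), with adjusted p = 0.988 by limma over all genes. Th had 9.32 ± 0.37 and 9.42 ± 0.55 log2 (SD, n = 5), a difference of 0.10 (SE 0.28, 1.07-fold), with adjusted p = 0.979 by limma. Both differences were smaller than the SD within either group. In a limma fit to the varying genes alone, adjusted p was 0.864 for Slc6a3 and 0.775 for Th. A 2-sided exact permutation test over the 252 labellings gave p = 0.778 for Slc6a3 and p = 0.706 for Th. Age held 0.453% of the variance of Slc6a3 over the arrays and 1.41% of that of Th.

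These results do not show that the ages were alike. The 95% interval of the Old minus Young difference in the fit to varying genes ran from -1.04 to 1.25 log2 for Slc6a3, or from 0.487-fold to 2.38-fold, and from -0.50 to 0.70 for Th, or from 0.706-fold to 1.63-fold. The sign for Slc6a3 turned when Young 4, Young 5, Old 1 or Old 2 was left out, with values from -0.13 to -0.079. That for Th turned without Young 5 (-0.014) or Old 2 (-0.064).

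Among the 12 varying dopamine genes, which include both members, 0 passed by age in the limma fit to varying genes alone, where 35.9% of all varying genes did. The groups overlapped in all 12, while they did not in 27.9% of varying genes. Slc6a3 was chosen with its spread within ages known, which makes overlap likely, and several of the 12 share its array pattern. An age difference also helps a gene to count as varying, so both shares are description and test nothing. By limma over all genes 0 of the 47 measured genes passed an adjusted p of 0.05, but 35 of them were levels only and 0.22% of all genes passed, so this count says little. Of the 47, 2 had an unadjusted p under 0.05 (Sncg and Nts, both levels only), where 6.82% of all genes did. After quantile normalization 16 passed, none of them varying in the deposited values, where 33.9% of all genes did, so that count is near the background. The 4 varying genes of synthesis and handling were each higher in Old, with Slc18a2 at 0.17 (SE 0.14) and Ddc at 0.10 (SE 0.082), and the 4 varying receptor and signalling genes were each lower, with Drd1 at -0.087 (SE 0.16). Of the 4 varying midbrain markers 2 were higher and 2 lower, with Aldh1a1 at -0.10 (SE 0.15). The median over the 12 genes was -0.0073 log2, against -0.019 over all varying genes.

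**Figure D4:**
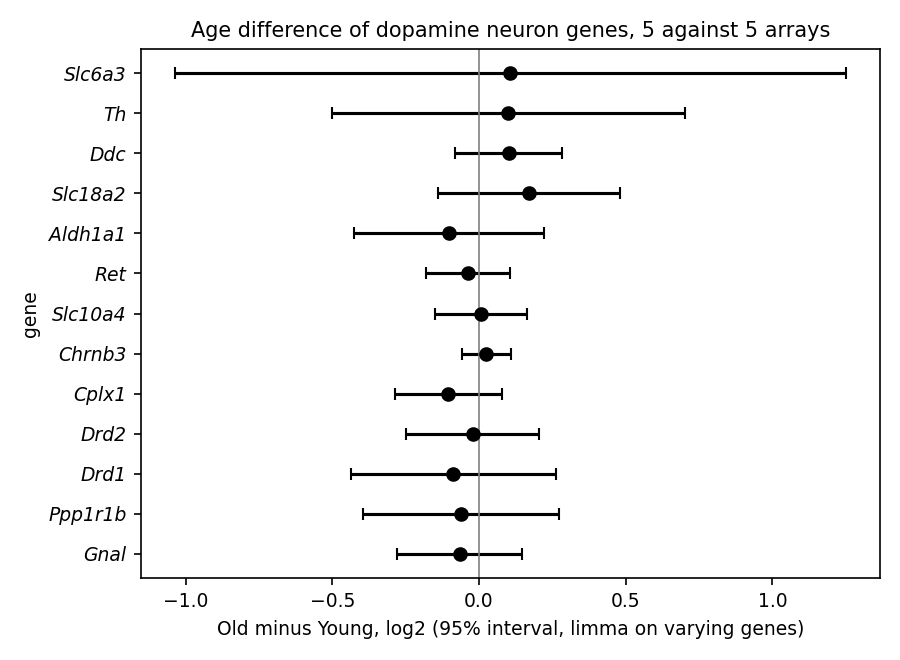
Old minus Young difference in log2 for the varying dopamine genes and Cplx1; points are differences of group means (5 against 5 arrays) and bars 95% intervals from limma on the varying genes. Every interval spans 0, and that of Slc6a3 is the widest, from -1.04 to 1.25.

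Markers of other tissues also differed between arrays, and their part in the levels of Slc6a3 and Th was not tested. Of 15 measured hypothalamus markers 5 varied (Avp, Pmch, Hcrt, Trh and Fezf1), with a mean of 8.89 to 9.18 log2 in Young and 9.07 to 9.26 in Old. Pmch, the melanin-concentrating hormone gene of the lateral hypothalamus, had an r to Slc6a3 of -0.62, Trh and Fezf1 of -0.56 and Hcrt of -0.38. Avp went the other way, with an r of 0.18. It was also the only 1 of the 5 to pass by age, 0.62 log2 higher in Old (adjusted p = 0.0035, limma on varying genes). Of 10 measured striatum markers 4 varied, with a mean of 7.83 to 8.29 in Young and 7.76 to 8.28 in Old, highest in Young 2, Old 3 and Young 1. These 3 arrays were all among the 6 high ones for Slc6a3. Young 3, Old 1 and Old 2, with the highest Slc6a3, had striatum means of 7.84 to 7.89, and the 4 low arrays 7.76 to 8.02. The striatum markers include Drd2, which is also on a dopamine list. Tcf7l2, a factor strong in thalamus and the only varying gene of 8 thalamus markers, had an r of 0.63 to Slc6a3. Of 9 choroid plexus markers 7 varied, with a mean of 8.55 in Young 5 and 6.56 to 6.76 in the other 9 arrays. All 6 measured markers of the mammillary and subthalamic nuclei, which lie between hypothalamus and midbrain, were levels only. Of 5 pituitary markers Gh varied, with its highest value in Young 2 (6.48). No marker was listed at 0, since the lowest value on any array was 5.00 log2. Without Young 3 and Young 5 the age difference was 0.024 log2 for Slc6a3 and 0.11 for Th.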

How the data were processed

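The deposited table holds 1 log2 value per probe set for each of 10 arrays. How the authors corrected, normalized and summarised these log2 signals is stated in no label or header used here. Gene names came from the platform's annotation, keeping the brightest probe set per gene on average over all arrays (19505 genes). Old was compared with Young by limma 3.58.1 in R 4.3.3 (lmFit and eBayes, 2-sided, Benjamini-Hochberg, threshold 0.05) over all genes, and again over the 276 genes with a population SD of at least 0.01 log2. Named genes are Slc6a3 and Th, dopamine list genes that varied, and the 8 varying genes with the highest and 4 with the lowest Pearson r to each; other genes were named after their values were seen. Some list genes are not reported here. The members and gene lists were chosen with earlier results of these data known. In simulated data with 50 of 276 varying genes changed by 0.3 log2 and 50 by 0.6, the fit to all genes recovered 22% and 68%, and that to varying genes 62% and 98%, with 2 false calls each; genes as variable as Slc6a3 are harder. The number of arrays limits the precision. Alternatives covered normalization, centring, filters, the prior, left-out arrays and a replicate block.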

Additional observations from a re-analysis of the deposited data

How the results depend on the processing

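Slc6a3 and Th did not pass in any alternative. The difference between ages ran from -0.13 to 0.43 log2 for Slc6a3 and from -0.064 to 0.24 for Th when single arrays were left out, with the smallest adjusted p at 0.931 and 0.918 (limma). Quantile normalization called 16 dopamine list genes, all among those that did not vary before it, where it called 33.9% of all genes, and left Slc6a3 at 0.11 and Th at 0.10. List genes were not counted in the fit to all probe sets or to genes with an SD of at least 0.05 log2; the other fits called 0, also each without 1 array. Young and Old share replicate numbers, but same-numbered arrays did not all deviate together over varying genes (r from -0.22 to 0.28), so the numbers were not taken to pair the samples. For Slc6a3 and Th themselves, same-numbered arrays deviated with the same sign in all 5 numbers. With the replicate block the differences were the same, 0.11 (SE 0.14, adjusted p = 0.925) and 0.10 (SE 0.16, adjusted p = 0.938). In the fit to varying genes the blocked 95% intervals were narrower, from -0.23 to 0.44 and from -0.27 to 0.47, and over all genes 10 rose and 1 fell, against 37 and 6 without it. The r of Slc6a3 and Th stayed between 0.94 and 0.96 without single arrays. Fits to genes with an SD of at least 0.05 log2 and the r within the 6 high arrays were chosen after seeing the data. No background signal was at hand, so nothing is known of how far either probe set lay above it.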
